A study of Mus musculus with 6 samples.

Results

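Guanylin and uroguanylin are small peptides that the epithelium of the gut releases toward its lumen. They bind guanylate cyclase C on the apical membrane of enterocytes, which then makes cyclic GMP, and cyclic GMP activates cGMP-dependent protein kinase II, which phosphorylates the chloride channel CFTR so that chloride, bicarbonate and water leave the cell. The same receptor is the target of the heat-stable enterotoxin of Escherichia coli, and low guanylin mRNA is a well known feature of human colorectal tumors. Guanylin is known mainly from the colon and distal gut, and uroguanylin mainly from the small intestine.

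The 5 genes of this axis were taken by symbol from the deposited table of 33573 mouse genes: Guca2a (guanylin), Guca2b (uroguanylin), Gucy2c (guanylate cyclase C), Prkg2 (cGMP-dependent protein kinase II) and Cftr. All 5 were listed 1 time each and all 5 passed the filter on low counts, as did 18520 genes in all. They were compared between 3 tumor libraries and 3 colon libraries of C57BL/6 mice with AOM/DSS colorectal cancer, in which the carcinogen azoxymethane (AOM) is followed by rounds of dextran sodium sulfate (DSS), which injures the colon epithelium. The study's methods give male mice of 8 to 10 weeks at the AOM dose of 10 mg/kg, 3 cycles of 2.5% DSS in drinking water, and tissue taken at week 16. The colon samples, labelled normal, carry the same AOM/DSS treatment as the tumors, so no library comes from an untreated colon. Of the genotype, the labels give only the strain.

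Replicates carry the numbers 2, 4 and 20 in both groups. Libraries held between 16995481 and 20789620 counts on genes. Although the labels name tumor cells and normal colon cells, the RNA came from frozen tissue, and the libraries held transcripts of other cell types: the summed level of 8 smooth muscle markers was 500 to 1062 CPM (counts scaled to library size) in tumor and 8975 to 9262 CPM in colon. The summed level of 12 pan-epithelial markers, such as Epcam and Cdh1, was 10390 to 11721 CPM in tumor and 10728 to 11967 CPM in colon, and these ranges overlapped. In bulk tissue of this kind, fewer cells of a type and less RNA per cell cannot be told apart.

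Guca2a and Guca2b are neighbours on chromosome 4, and promoter sequence from the RefSeq table (build GRCm38.p6) was found for them and for Cftr, 3 of the 5 genes. The 250 bases before the start site are shown because these genes lie in 1 pathway but differed in their change; capitals mark the matches to the motifs searched. The Guca2a window is chr4:119637482-119637731 on the plus strand, the Guca2b window chr4:119658946-119659195 on the minus strand and the Cftr window chr6:18170437-18170686 on the plus strand, each written 5′ to 3′ along its gene.
Guca2a: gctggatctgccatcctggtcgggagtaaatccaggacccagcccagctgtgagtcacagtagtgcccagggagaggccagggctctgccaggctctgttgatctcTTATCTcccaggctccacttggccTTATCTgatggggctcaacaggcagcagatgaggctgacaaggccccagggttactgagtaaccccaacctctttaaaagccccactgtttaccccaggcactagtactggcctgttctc
Guca2b: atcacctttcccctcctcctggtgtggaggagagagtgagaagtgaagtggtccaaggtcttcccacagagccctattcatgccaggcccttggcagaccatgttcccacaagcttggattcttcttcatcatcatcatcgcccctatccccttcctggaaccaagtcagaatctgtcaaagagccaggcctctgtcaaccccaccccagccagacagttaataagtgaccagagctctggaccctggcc
Cftr: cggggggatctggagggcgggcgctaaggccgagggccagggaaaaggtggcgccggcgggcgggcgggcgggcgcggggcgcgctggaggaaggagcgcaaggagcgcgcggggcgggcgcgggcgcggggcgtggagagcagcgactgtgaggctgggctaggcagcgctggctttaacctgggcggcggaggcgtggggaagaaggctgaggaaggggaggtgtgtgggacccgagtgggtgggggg
Motifs of 5 kinds were searched on both strands, and each is given with the share of 32851 windows of the same length that hold it. The motif of Gata factors, a family active in gut epithelium, was spelled AGATAA and found in 9.99% of all windows. The Guca2a window held 2 matches to it, both on the opposite strand and so printed as TTATCT, that begin 144 and 120 bases before the start site. The other motifs had no match in any of the windows shown. They were that of Cdx factors, the homeobox factors of intestinal identity, spelled TTTATNG and found in 9.81% of windows, and that of Hnf4, a nuclear receptor of gut and liver, spelled CAAAGTC and found in 3.84%. The motif of Tcf/Lef factors, through which Wnt signals act, was spelled CTTTGAT and found in 3.21% of windows, and the TATA box, spelled TATAAA, in 12.4%. The Guca2b and Cftr windows held no match to any motif searched. The 2 matches did not overlap. By composition the Cftr window stood apart from those of the peptides, with 76.4% G and C and 30 CpG dinucleotides, against 57.2% and 1 for Guca2a, 54.4% and 1 for Guca2b, and medians of 52.4% and 6 over all windows.

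In the tumors, guanylin, its receptor and the chloride channel were lower, the kinase was higher, and uroguanylin showed no difference. In the edgeR quasi-likelihood test over 18520 genes, 3 of the 5 genes were called lower and 1 higher at an adjusted p of 0.05, where 16.1% of all tested genes were called lower and 16.1% higher (32.2% in either direction; 36.9% by DESeq2 and 31.8% by limma-voom, which made the same calls on these 5). The tumor and colon libraries did not overlap in CPM for 4 of the 5 genes, and 49.6% of tested genes had groups without overlap, 25.3% with all tumor libraries above and 24.2% with all below. The log2 fold changes (tumor over colon) ran from -3.15 for Guca2a to 3.74 for Prkg2, while the median over all tested genes was 0.01. In the plot of FPKM (fragments scaled by exon length and by mapped reads) by library, Guca2a stays the highest of the 5 in every library although it lies lower in each tumor.

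**Figure D1:**
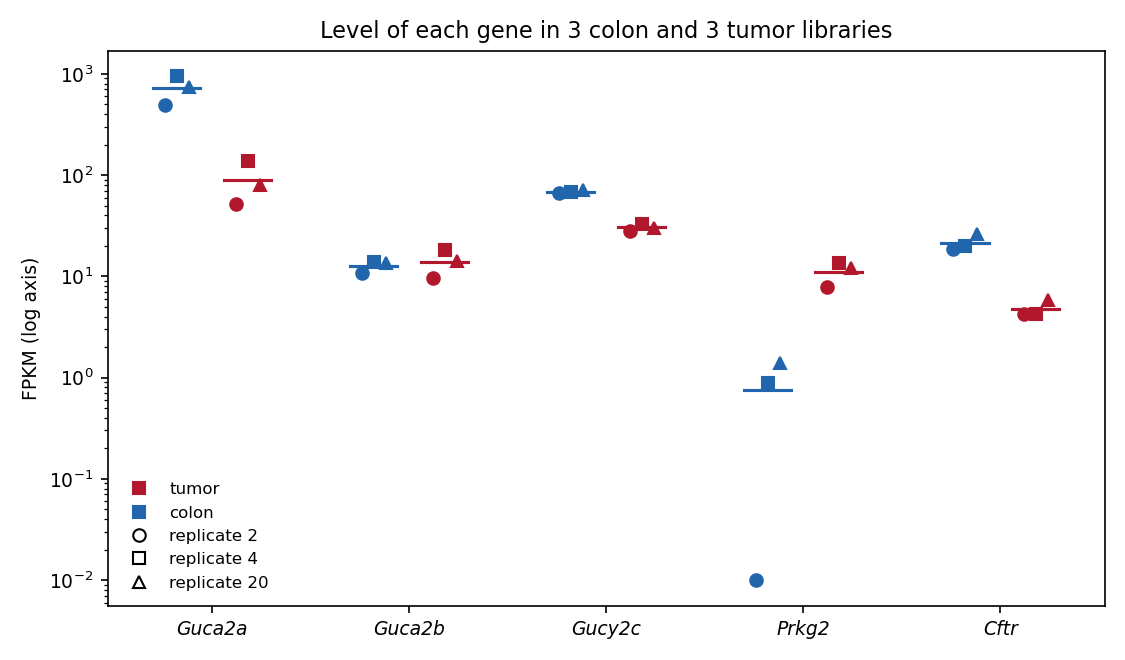
FPKM on a log axis for the 5 genes in 3 colon (blue) and 3 tumor (red) libraries, with symbols for the replicate numbers and a line at each group's mean. Guca2a, Gucy2c and Cftr lie lower in every tumor library, Prkg2 lies higher in every tumor library with colon replicate 2 far below the other colon libraries, and the Guca2b groups overlap.

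Guca2a (ENSMUSG00000023247, GRCm39 chr4:119494901-119496668, plus strand), the gene of the guanylin precursor, stood at 489, 952 and 739 FPKM in colon replicates 2, 4 and 20. In the tumors of the same numbers it stood at 52.3, 136 and 79.6 FPKM. The highest tumor library was thus well below the lowest colon library. By mean FPKM it ranked 31 among the genes of the table in colon and 466 in tumor. In CPM the means were 452 ± 147 in colon and 51.0 ± 24.2 in tumor (SD, n = 3 each). The log2 fold change was -3.15 ± 0.40 (SE), 8.85-fold lower, with an edgeR adjusted p of 0.002, and between libraries of equal number it was -3.33, -2.93 and -3.33. The call held under all 17 alternative settings, with log2 fold changes from -3.57 to -2.86. The summed level of 9 mature colonocyte markers, cells in which guanylin is also made, was 2064, 5830 and 4862 CPM in tumor replicates 2, 4 and 20, the order of the libraries in Guca2a. In colon the sum was 7502, 8802 and 5853 CPM, where replicate 20 was lowest and the order was not that of Guca2a. Of that colon sum, Lypd8 alone held 6294, 6185 and 4145 CPM. As a mean log2 CPM, which weighs the 9 markers equally, the list stood at 3.85, 6.07 and 5.23 in tumor. It stood at 6.75, 8.26 and 7.64 in colon, so this mean had the order of Guca2a in both groups. The summed level of 8 goblet cell markers was 3248, 8772 and 7132 CPM in tumor, the same order again. In colon it was 21019, 25883 and 52730 CPM, where replicate 20 was highest, unlike Guca2a. The 8 smooth muscle markers also had this tumor order, at 500, 1062 and 728 CPM, so it was not particular to colonocytes. The part of any of these cell types in the Guca2a difference was not tested.

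Guca2b (ENSMUSG00000032978, GRCm39 chr4:119513804-119516151, minus strand), the gene of the uroguanylin precursor, stood at 10.8, 14.0 and 13.5 FPKM in colon replicates 2, 4 and 20. In the tumors it stood at 9.59, 18.0 and 14.2 FPKM, a range that contained all of the colon values. In CPM the means were 11.6 ± 1.72 in colon and 11.6 ± 3.54 in tumor (SD, n = 3 each). The log2 fold change was 0.00 ± 0.26 (SE), with an edgeR adjusted p of 0.993, and the interval of ± 1.96 SE spans -0.51 to 0.52. The multiple 1.96 is that of a normal distribution, so this interval is somewhat narrow for 3 libraries a group. Differences within it, or a little beyond it, thus cannot be set aside. Guca2b was called under none of the 17 alternative settings, whose values ran from -0.22 to 0.22. The counts behind it were modest, 162 to 326 per tumor library and 177 to 228 per colon library.

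The peptide genes lie 17135 bases apart on opposite strands, with no other tested gene between them. Their difference within a library, Guca2a minus Guca2b in log2 CPM, was 4.93, 5.53 and 5.21 in colon and 1.88, 2.36 and 1.93 in tumor. It was lower in each tumor by about the same amount, -3.05, -3.16 and -3.28 between libraries of equal number (exact two-sided permutation p = 0.1, the smallest that 3 against 3 libraries allow; adjusted p = 0.1 over 4 such differences). In FPKM, Guca2b made up 2.16%, 1.45% and 1.80% of the sum of both peptide genes in colon replicates 2, 4 and 20 and 15.5%, 11.7% and 15.1% in tumor. That sum stood at 500, 966 and 753 FPKM in colon and 61.9, 154 and 93.8 FPKM in tumor. The nearest tested neighbour on the far side of Guca2a is Foxj3, a forkhead factor, at 8584 bases, with a log2 fold change of -0.18 ± 0.12 (edgeR adjusted p = 0.271). Beyond Guca2b at 74829 bases lies Hivep3, a zinc finger protein, with -0.46 ± 0.16 (edgeR adjusted p = 0.0632). Of these 4 genes, Guca2a was the one called.

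Gucy2c (ENSMUSG00000042638, GRCm39 chr6:136674282-136758763, minus strand), which encodes the receptor that turns the peptide signal into cyclic GMP, stood at 66.0, 68.1 and 71.0 FPKM in colon replicates 2, 4 and 20. In the tumors it stood at 28.3, 32.9 and 30.3 FPKM. Replicates of a group lay close together and the groups were far apart. In CPM the means were 283 ± 15.7 in colon and 116 ± 8.93 in tumor (SD, n = 3 each). The log2 fold change was -1.29 ± 0.10 (SE), 2.44-fold lower, with an edgeR adjusted p of 0.000383, and -1.33, -1.18 and -1.35 between libraries of equal number. It was called under all 17 alternative settings, with values from -1.33 to -1.14. The receptor fell less than guanylin: Guca2a minus Gucy2c in log2 CPM was 0.15, 1.07 and 0.64 in colon and -1.85, -0.68 and -1.34 in tumor, a difference of -1.91 (exact two-sided permutation p = 0.1, the smallest possible; adjusted p = 0.1). In FPKM, Guca2a was 7.41 to 14.0 times as high as Gucy2c in colon and 1.85 to 4.15 times in tumor. Of its nearest tested neighbours, Plbd1, a phospholipase B-like gene, was lower (-0.88 ± 0.23, edgeR adjusted p = 0.0274), and H4f16, a histone gene with at most 26 counts in a library, was not called.

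Prkg2 (ENSMUSG00000029334, GRCm39 chr5:99077632-99185210, minus strand), the kinase that carries the cyclic GMP signal to Cftr and to the sodium/proton exchanger Slc9a3, had 1, 80 and 144 counts in colon replicates 2, 4 and 20, or 0.00991, 0.877 and 1.38 FPKM. In the tumors it had 812, 1514 and 1141 counts, or 7.79, 13.6 and 12.02 FPKM. Every tumor library lay above every colon library, and colon replicate 2 lay far below the other colon libraries. The 1 count of that library has an exact Poisson 95% interval of 0.0253 to 5.57 counts, which covers counting error only. In CPM the means were 4.29 ± 3.96 in colon and 57.4 ± 15.7 in tumor (SD, n = 3 each). The log2 fold change was 3.74 ± 0.93 (SE), 13.4-fold higher, with an edgeR adjusted p of 0.0213. The tumor to colon ratio in CPM was 728 for replicate 2 (exact 95% counting interval 130 to 28782), 14.1 for replicate 4 (11.3 to 17.9) and 7.99 for replicate 20 (6.71 to 9.57).

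The direction of Prkg2 was the same in all 17 alternative settings but its size and its call were the least firm of the 5 genes. The call was lost without tumor replicate 20 (3.67, edgeR adjusted p = 0.0614) and without colon replicate 4 (3.84, edgeR adjusted p = 0.0749). Without colon replicate 2 the change was 3.15 ± 0.34, 8.90-fold higher, with an edgeR adjusted p of 0.00263, and without colon replicate 20 it was 4.55, 23.5-fold higher. The adjusted p of Prkg2 ran from 0.00205 to 0.0749 over the alternatives.

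Other genes also differed between the colon libraries. Hoxd13, a homeobox gene of the distal gut, stood at 189, 65.6 and 7.80 CPM in colon replicates 2, 4 and 20, and the bicarbonate cotransporter gene Slc4a4 at 357, 119 and 65.5 CPM, both graded over the 3 libraries, while Prkg2 stood at 0.0545, 4.91 and 7.91 CPM. Cdx2, a homeobox factor of intestinal identity, stood at 23.4, 194 and 223 CPM and Slc9a3 at 23.8, 159 and 309 CPM, both lowest in the library in which Prkg2 was lowest. The labels do not say where along the colon the tissue was taken, and the part of position in the Prkg2 difference was not tested. The summed level of 6 distal Hox genes was 186 to 371 CPM in tumor and 200 to 564 CPM in colon, and these ranges overlapped. Within that sum, Hoxd13 stood at 124, 1.05 and 109 CPM in tumor replicates 2, 4 and 20, so libraries of equal number differed. Of the nearest tested neighbours of Prkg2, Bmp3, a BMP ligand gene 45376 bases away, was lower in tumor (-2.24 ± 0.35, edgeR adjusted p = 0.00414). The lncRNA Gm43251, 1711 bases upstream of Prkg2 on the same strand, had 20, 50 and 35 counts in tumor and 0, 1 and 1 in colon (edgeR adjusted p = 0.00282).

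Cftr (ENSMUSG00000041301, GRCm39 chr6:18170686-18322767, plus strand), the chloride and bicarbonate channel at the end of this pathway, stood at 18.6, 19.9 and 25.9 FPKM in colon replicates 2, 4 and 20. In the tumors it stood at 4.28, 4.20 and 5.89 FPKM. The highest tumor library was well below the lowest colon library, and replicate 20 was the highest in both groups. In CPM the means were 175 ± 35.2 in colon and 35.8 ± 7.76 in tumor (SD, n = 3 each). The log2 fold change was -2.29 ± 0.21 (SE), 4.88-fold lower, with an edgeR adjusted p of 0.00055, and -2.22, -2.37 and -2.26 between libraries of equal number. It was called under all 17 alternative settings, with values from -2.47 to -1.96. Cftr minus Gucy2c in log2 CPM was -0.86, -0.80 and -0.48 in colon and -1.75, -1.99 and -1.39 in tumor, a difference of -0.998 (exact two-sided permutation p = 0.1, the smallest possible; adjusted p = 0.1).

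An antisense lncRNA, Gm15592, lies within Cftr and shares 133 bases of transcript with it, and the sources used here do not say whether counting used the strand, so reads of the 2 cannot be told apart with certainty. Gm15592 had 27, 36 and 41 counts in tumor and 116, 89 and 184 in colon, far below the 646 to 808 and 2631 to 3903 counts of Cftr, and was also lower (-2.06 ± 0.35, edgeR adjusted p = 0.00547). For the other 4 genes no transcript of another gene matched over at least 75 bases at 97% identity. Of the nearest tested neighbours of Cftr, Cttnbp2, a cortactin-binding protein, was lower (-1.19 ± 0.29, edgeR adjusted p = 0.0204), and Wnt2, a Wnt ligand with 2 to 51 counts per library, was not called.

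**Figure D2:**
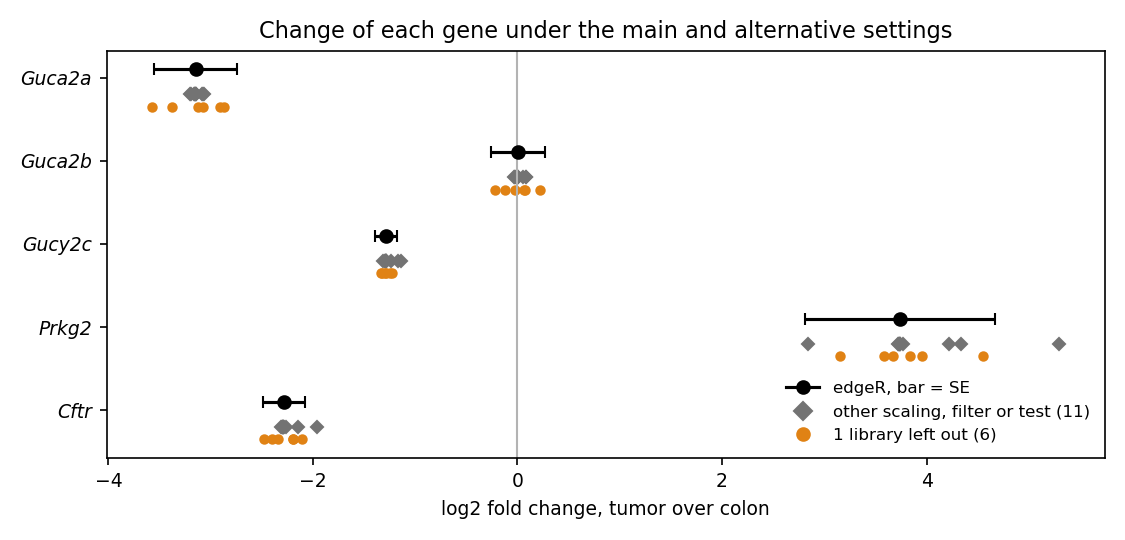
Log2 fold change (tumor over colon) of the 5 genes in the edgeR fit (black, bar ± SE), under 11 other scalings, filters or tests (grey) and with each of the 6 libraries left out (orange). Guca2a, Gucy2c and Cftr stay below 0 and Prkg2 above 0 in every setting shown, Prkg2 has the widest range, from 2.84 to 5.30, and Guca2b lies on both sides of 0.

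Compared per length, the order of the 5 genes differed between the groups. In colon, the mean FPKM was 727 ± 232 for Guca2a, 68.4 ± 2.49 for Gucy2c, 21.5 ± 3.92 for Cftr, 12.8 ± 1.71 for Guca2b and 0.757 ± 0.695 for Prkg2 (SD, n = 3), and no neighbours in this order overlapped. In tumor, it was 89.4 ± 42.9 for Guca2a, 30.5 ± 2.28 for Gucy2c, 13.9 ± 4.22 for Guca2b, 11.1 ± 2.99 for Prkg2 and 4.79 ± 0.95 for Cftr. There Guca2b and Prkg2 overlapped, and the other neighbours did not. The channel thus stood above the kinase in every colon library, at 18.7 to 1874 times its FPKM, and below it in every tumor library, at 0.31 to 0.55 times. The receptor stood at 51.3 to 6661 times the FPKM of the kinase in colon and at 2.42 to 3.64 times in tumor, the upper colon ratios resting on the 1 count of colon replicate 2.

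Measured against pan-epithelial genes in the same libraries, the picture was much the same. The mean log2 CPM of the 12 pan-epithelial genes was 9.19 to 9.28 in tumor and 9.15 to 9.24 in colon. Relative to it, Guca2a was lower in tumor by a log2 difference of -3.23, Cftr by -2.32 and Gucy2c by -1.32, and Prkg2 was higher by 4.88 (3.10 without colon replicate 2), each with groups that did not overlap (exact two-sided permutation p = 0.1, the smallest possible; adjusted p = 0.125 over the 5 genes). Guca2b differed by -0.07 (exact two-sided permutation p = 0.8; adjusted p = 0.8). Relative to these genes, the difference of Guca2a between libraries of equal number was -3.35, -2.88 and -3.47, and that of Gucy2c -1.35, -1.13 and -1.48.

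**Figure D3:**
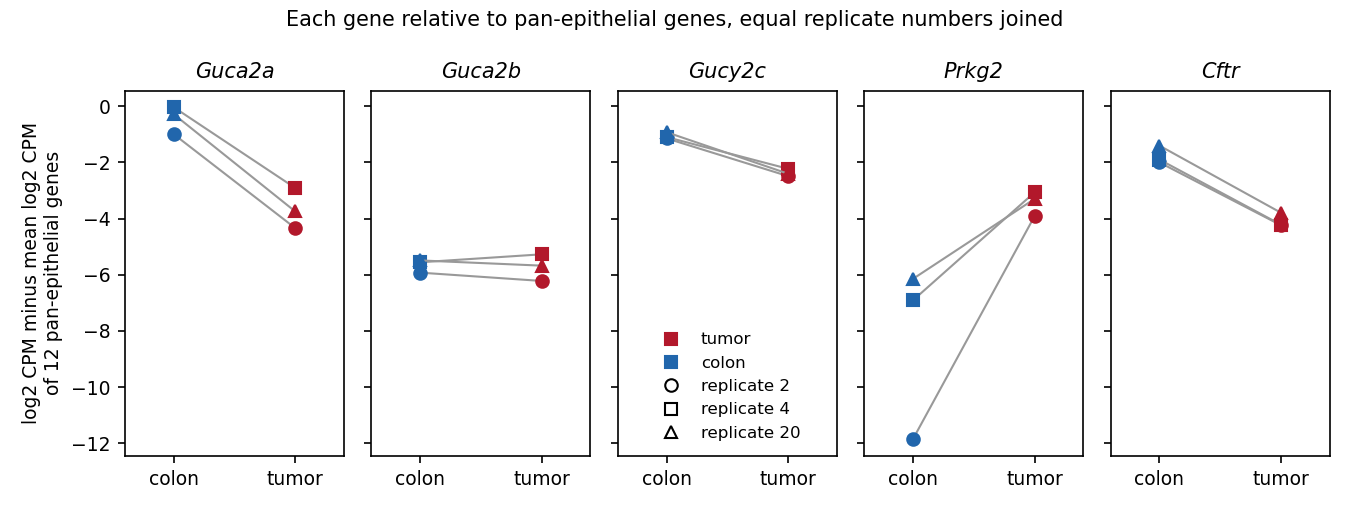
Log2 CPM of each of the 5 genes minus the mean log2 CPM of 12 pan-epithelial genes in the same library, for colon (blue) and tumor (red), with lines joining equal replicate numbers. All lines fall for Guca2a, Gucy2c and Cftr and rise for Prkg2, whose colon replicate 2 lies at -11.85, and the lines of Guca2b go both ways.

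The remaining genes of cyclic GMP signalling and of Cftr's surroundings were read from 5 lists. Of 16 genes that make cyclic GMP or its upstream signals outside this axis, 9 were tested, 4 were called lower and 0 higher in edgeR (2 higher at an unadjusted p under 0.05, and 0 called higher by DESeq2 and by limma-voom), with a median log2 fold change of -0.30. The count of higher genes was 3 without tumor replicate 4, 2 with no count filter, and 1 without colon replicate 4 and 1 with the replicate block. The genes that fell included Gucy1b1 and Gucy1a1, the subunits of the nitric oxide receptor soluble guanylate cyclase (-1.44 ± 0.23 and -2.47), Npr2, a natriuretic peptide receptor (-1.31), and Nos1, the neuronal nitric oxide synthase (-4.04 ± 0.39). Nos2, the inducible nitric oxide synthase, stood at 14.4, 125 and 45.8 CPM in tumor and 3.43, 26.0 and 4.23 CPM in colon and did not pass the unpaired test (2.46 ± 0.99, edgeR adjusted p = 0.0997). It was higher in tumor in all 3 pairs of equal number and was called with the replicate block (2.58 ± 0.30, edgeR adjusted p = 0.00605), where the adjusted p ran from 0.00605 to 0.281 over its 17 alternatives and 2 of them called it. The summed level of 7 enteric nerve and glia markers was 5.62 to 7.92 CPM in tumor and 28.6 to 55.4 CPM in colon, with Sox10 at 0 in tumor replicate 2, and all 8 smooth muscle markers were lower. The part of these cells in the fall of Nos1 and the soluble cyclase was not tested.

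Of 15 genes that break down, export or otherwise answer to cyclic GMP, 14 were tested, 4 were higher and 6 lower, with a median of -0.16. The count of higher genes was 1 without colon replicate 4 and 2 without any 1 of tumor replicates 2 and 20 and colon replicates 2 and 20. Abcc4, a membrane pump that exports cyclic nucleotides, stood at 141, 121 and 161 CPM in tumor and 27.0, 27.1 and 31.5 CPM in colon and rose by 2.30 ± 0.14 on the log2 scale (edgeR adjusted p = 0.000193). Pde9a, a phosphodiesterase that breaks down cyclic GMP, rose as well (1.18, edgeR adjusted p = 0.0218). Pde5a, another cyclic GMP phosphodiesterase, stood at 81.9 to 102 CPM in tumor and 148 to 167 CPM in colon and fell (-0.81, edgeR adjusted p = 0.00286). Pde3a, a cyclic nucleotide phosphodiesterase, fell too (-1.80). Prkg1, the sister kinase of Prkg2 best known from smooth muscle, changed in the opposite direction from Prkg2: it stood at 2.05, 2.48 and 0.997 CPM in tumor and 10.1, 12.8 and 14.9 CPM in colon (-2.76, edgeR adjusted p = 0.00214). Its substrate in smooth muscle, Irag1, fell in the same comparison (-2.51), beside smooth muscle markers that were 8 of 8 lower, and their part in this was not tested. Vasp, a kinase substrate found in many cells, stood at 330 to 370 CPM in tumor and 309 to 338 CPM in colon (0.10, edgeR adjusted p = 0.465).

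Of 14 genes of apical scaffolds and Cftr handling, all were tested, 1 was higher and 5 lower, with a median of -0.30. The count of lower genes was 2 without tumor replicate 20 or colon replicate 20, 3 without replicate 2 of either group or colon replicate 4, and 2 when libraries were scaled to the pan-epithelial genes. The PDZ scaffolds Slc9a3r1 (-0.80, edgeR adjusted p = 0.0478) and Slc9a3r2 (-1.11, edgeR adjusted p = 0.0075), which tether Cftr and the sodium/proton exchanger at the apical membrane, were called lower, Slc9a3r1 in 9 and Slc9a3r2 in 17 of 17 alternative settings. So was Pdzd3, a PDZ protein that binds guanylate cyclase C, at 3.62 to 10.4 CPM in tumor and 12.9 to 18.7 CPM in colon (-1.21, edgeR adjusted p = 0.0453), a call held in 10 of 17 alternative settings and lost with the replicate block (-1.29, edgeR adjusted p = 0.0527; 0.00636 to 0.129 over the alternatives). Prkar2a, a regulatory subunit of protein kinase A, fell (-0.78). Lpar2, a lysophosphatidic acid receptor that forms a complex with Cftr through a PDZ scaffold, was the gene that rose, at 8.71 to 19.5 CPM in tumor and 3.76 to 3.99 CPM in colon (1.81, edgeR adjusted p = 0.00584). Ezr, the linker to actin, showed no call (-0.20, edgeR adjusted p = 0.428).

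Of 18 electrolyte transport genes that work beside Cftr, all were tested, 9 were lower and 0 higher in edgeR (0 higher at an unadjusted p under 0.05, by DESeq2 and by limma-voom), with a median of -0.70. Slc26a3, the chloride/bicarbonate exchanger of the colon surface, stood at 231, 541 and 344 CPM in colon and 1.51, 29.9 and 17.7 CPM in tumor (-4.50 ± 0.92, edgeR adjusted p = 0.0105). Slc4a4, the basolateral bicarbonate cotransporter, fell by 3.12, and the sodium/proton exchanger Slc9a2 by 2.04 on the log2 scale. The sodium pump subunit Atp1b1 fell by 0.55. Slc12a2, the basolateral cotransporter that loads chloride into the cell for secretion, stood at 327 to 412 CPM in tumor and 302 to 477 CPM in colon (0.06, edgeR adjusted p = 0.851). Slc9a3, the exchanger that cyclic GMP inhibits through Prkg2, stood at 360, 364 and 427 CPM in tumor, above all colon libraries, but was not called (1.23 ± 0.73, edgeR adjusted p = 0.238).

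**Figure D4:**
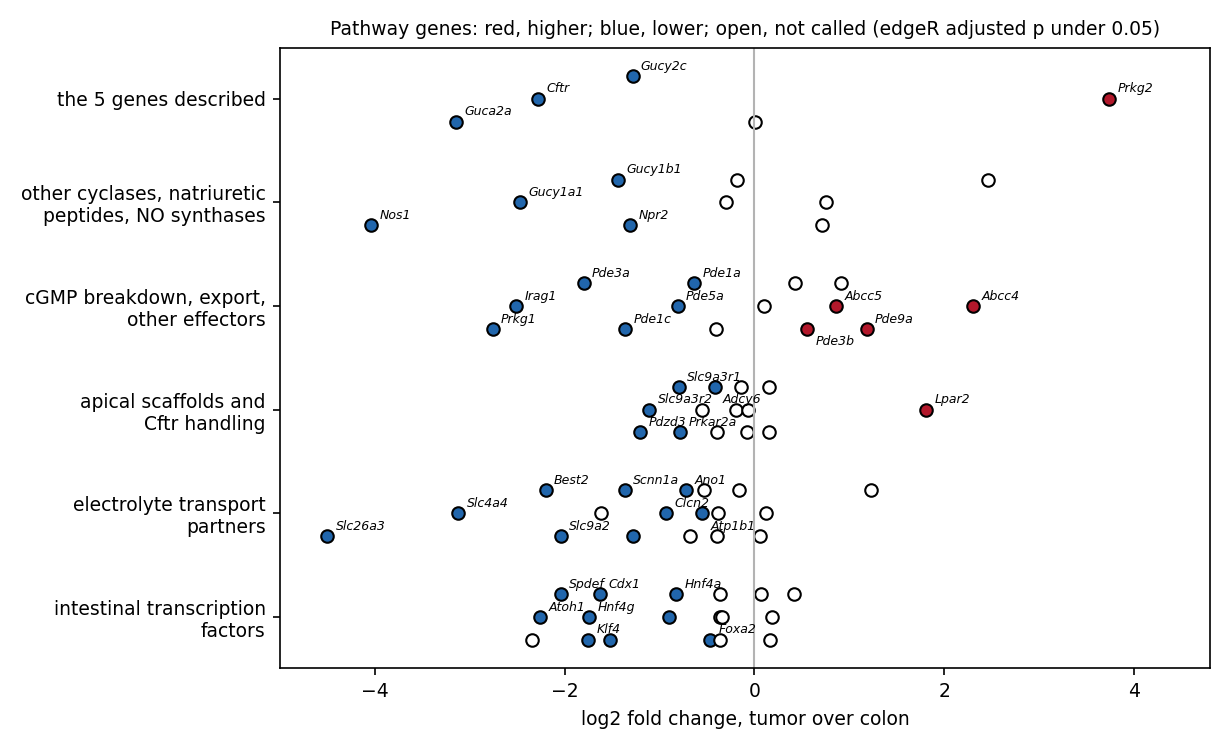
Log2 fold change (tumor over colon) of the 5 genes and of the tested genes of 5 pathway lists, 1 point per gene, staggered vertically for legibility, with called genes filled, most of them named (red higher, blue lower, edgeR adjusted p under 0.05). Blue points outnumber red ones in every list, from 9 lower and 0 higher among the electrolyte partners to 6 lower and 4 higher among the genes of cyclic GMP breakdown and export.

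Of 19 intestinal transcription factors, 18 were tested, 9 were lower and 0 higher in edgeR (1 higher at an unadjusted p under 0.05, and 1 called by DESeq2, 1 by limma-voom, 1 with the replicate block and 1 without colon replicate 2), with a median of -0.65. Cdx1, a homeobox factor of intestinal identity, stood at 77.1 to 104 CPM in tumor and 267 to 316 CPM in colon (-1.63 ± 0.15, edgeR adjusted p = 0.00056). The nuclear receptors Hnf4a and Hnf4g fell by 0.83 and 1.74. Cdx2 stood at 7.82, 65.0 and 13.3 CPM in tumor and 23.4, 194 and 223 CPM in colon, so that the groups overlapped (-2.35 ± 1.001, edgeR adjusted p = 0.114). It was lower in tumor in all 3 pairs and was called with the replicate block (-2.37 ± 0.57, edgeR adjusted p = 0.0348; 0.0277 to 0.266 over its 17 alternatives, of which 3 called it). Elf3, an epithelial Ets factor, was not called (0.17, edgeR adjusted p = 0.301).

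Among the cell types of the epithelium, 4 of 9 mature colonocyte, 6 of 8 goblet cell and 8 of 8 enteroendocrine markers were lower and none of them higher in edgeR (0 higher at an unadjusted p under 0.05, by DESeq2 and by limma-voom), with median log2 fold changes of -2.02, -2.00 and -2.67. When genes holding over 1% of a library were left out, 5 of the goblet cell markers were tested and 3 of them were lower. The colonocyte median was the value of 1 gene, Tmigd1 (-2.02 ± 1.52), which was not called. The 4 colonocyte markers called lower ran from -5.17 to -2.46 and the 5 not called from -2.02 to -0.53. With the replicate block, 6 of the 9 were called lower, and the count ran from 4 to 6 over the alternatives. The changes of Guca2a, Cftr and Gucy2c were -3.15, -2.29 and -1.29. Of 8 crypt base and stem cell markers, 6 were higher and 2 lower, with a median of 1.44 and a summed level of 1101 to 1644 CPM in tumor against 502 to 639 CPM in colon. Tuft cell markers were mixed, 1 higher (Avil) and 2 lower of 4, with 1 lower without tumor replicate 2 or 20 or colon replicate 4 or 20. Of 8 immune markers, 4 were higher and 1 lower, with 2 higher without replicate 20 of either group or colon replicate 4, and 0 lower without any 1 library other than tumor replicate 4. Of 8 fibroblast and endothelium markers, 2 were higher and 0 lower (0 lower at an unadjusted p under 0.05, by DESeq2 and by limma-voom). Without colon replicate 4 or 20, or tumor replicate 2, the count of higher genes was 0, without tumor replicate 20 it was 1 and without tumor replicate 4 it was 4, and 1 was lower without tumor replicate 2 or colon replicate 20. Of the 12 pan-epithelial markers 2 were higher and 0 lower (2 lower at an unadjusted p under 0.05, and 1 by DESeq2 and 1 by limma-voom), with a median of -0.09, and 1 was higher without tumor replicate 2 or 20 or colon replicate 2 or 4, and with the replicate block. The part of any of these cell types in the changes of the 5 genes was not tested.

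**Figure D5:**
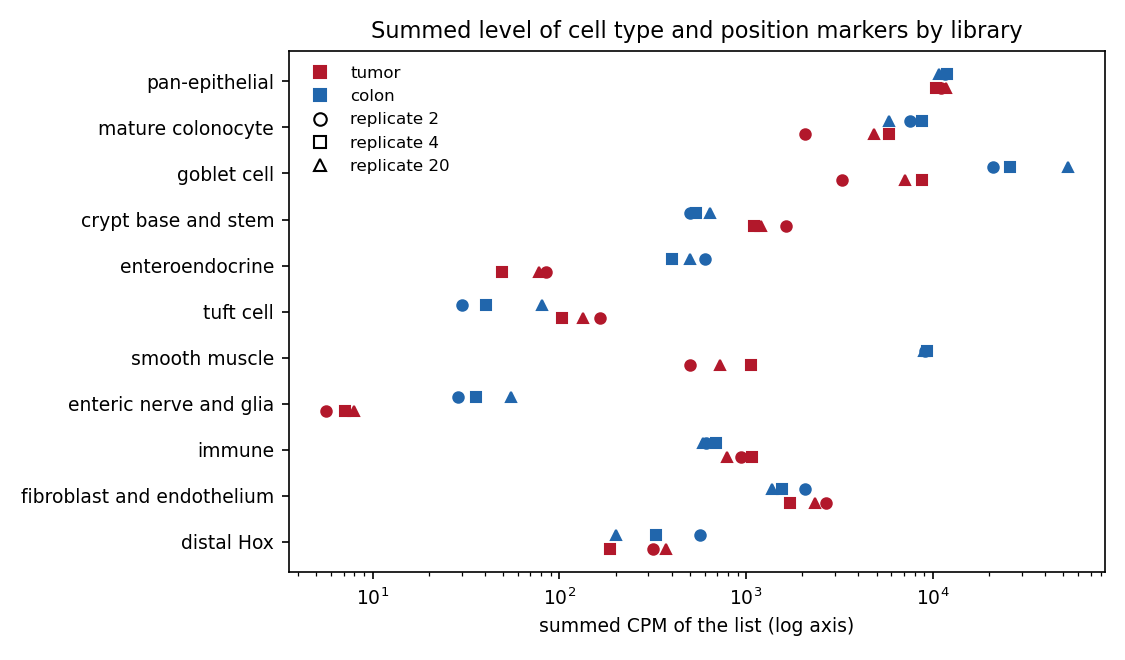
Summed CPM of each marker list by library on a log axis, for tumor (red) and colon (blue), with symbols for the replicate numbers. Pan-epithelial sums overlap between 10390 and 11967 CPM, as do fibroblast and distal Hox sums over their own ranges. Goblet cell, enteroendocrine, smooth muscle and nerve sums lie lower in every tumor library. Mature colonocyte sums do so narrowly, with 5830 CPM the highest in tumor and 5853 CPM the lowest in colon. Crypt base and stem, immune and tuft cell sums lie higher in every tumor library, the tuft sum in tumor being mostly Avil.

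The genes whose profile over the 6 libraries was most like that of each of the 5 were found by the root mean square distance between log2 CPM values centred on each gene's mean, among 14145 candidates. For Guca2a these were Ppp1r14a, an inhibitor of myosin phosphatase known from smooth muscle (distance 0.19), Mmp17, a membrane metalloproteinase (0.21), and Nap1l5 (0.21). Ppp1r14a stood at 3.13, 8.67 and 4.93 CPM in tumor and 29.1, 45.5 and 43.9 CPM in colon. For Gucy2c they included Fahd1 (0.06) and Dmd, the dystrophin gene (0.07), and Fahd1 stood at 16.4, 18.7 and 16.6 CPM in tumor and 40.5, 46.0 and 43.9 CPM in colon. For Cftr they were Lrig3 (0.08), the complement regulator Cd59a (0.12) and B3galnt1 (0.16). For Guca2b they were Fdxacb1 (0.07), the linker histone gene H1f4 (0.08) and Daglb, a lipase (0.08).

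No gene lay as close to Prkg2, whose nearest were Itln1, the lectin intelectin (0.79), Evx1, a homeobox factor (0.82), and Rdh1, a retinol dehydrogenase (0.95). Itln1 stood at 117, 225 and 80.1 CPM in tumor and 1.20, 12.2 and 26.5 CPM in colon, and Evx1 at 42.8, 49.0 and 44.8 CPM in tumor and 0.491, 7.37 and 7.36 CPM in colon. Both were thus lowest in colon replicate 2, the library in which Prkg2 had 1 count. The choice by nearest profile favours genes that share this low value, so it adds nothing about Prkg2. These distances describe 6 libraries of 2 groups, so any gene with a like difference between tumor and colon lies close.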

How the data were processed

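The 6 libraries were made from frozen tissue with a stranded mRNA kit. Per the submitters' processing notes, cutadapt, HISAT and GRCm39 were used, while versions, the read counter and whether strand was used in counting were not given in the sources used here. Deposited values are read counts per gene and FPKM, which the authors computed from exon fragments, exon length and mapped reads. FPKM recomputed from the counts gave the exon length as a whole number, within 0.01 base, in 100% of 86659 values with at least 50 counts.

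Counts were scaled with TMM, filtered with filterByExpr and tested with edgeR 4.0.16 (quasi-likelihood, Benjamini-Hochberg adjusted p over 18520 genes, threshold 0.05), without pairing, as in the study. SE values are the log2 fold change over the root of F and are approximate. CPM use TMM-scaled totals. Log2 CPM use a prior count of 2. The labels do not say that replicates are separate animals, so the spread behind the p-values may be technical. The series design states paired tissue, and equal numbers were taken as pairs. Deviations from group means correlated at 0.19, 0.12 and 0.02 for the numbers 2, 4 and 20. Between unequal numbers the correlations ran from -0.20 to 0.12, so these values do not settle the pairing. The fit was tested on simulated data with 200 changed genes. It called 2% of the 1.5-fold, 34% of the 2-fold, 72% of the 4-fold and 92% of the 8-fold changes, with 4 false calls. The changed genes were few among the 18143 simulated, while 32.2% of genes were called in the data. The p adjustment was thus stricter in the simulation, and these shares may be lower than in the data. A gene not called here may thus have changed. The alternatives used limma 3.58.1, DESeq2 1.42.0, other scalings and filters, a replicate block and each library left out. Shared transcript sequence was searched with BLAST 2.17.0. Coordinates of genes are those of the deposited table.

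The 5 genes and all lists were chosen with earlier results of these data known. Genes named from a pathway list are the 3 of lowest adjusted p, the 2 of highest FPKM and those that act on the 5. Gucy1a1 was named after its values were seen, as were Hoxd13 and the other genes that differed between colon libraries. Some named items are not reported here.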

Additional observations from a re-analysis of the deposited data

How the results depend on the processing

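Leaving out 1 library at a time gave 1905 to 2908 genes higher and 1904 to 2930 lower, with the lowest counts without colon replicate 4, and a Prkg2 change of 3.15 to 4.55, called in 4 of 6 cases. The replicate block changed none of the calls of the 5 genes (Guca2a -3.20, Guca2b -0.03, Gucy2c -1.29, Prkg2 4.22, Cftr -2.29) and gave 2724 genes higher and 2833 lower. Of 29 genes named from the pathway lists it changed the call of 3, Nos2, Cdx2 and Pdzd3. Guca2a, Gucy2c and Cftr were called lower in all 17 alternatives. DESeq2 called 3329 genes higher and 3513 lower. With limma on FPKM, a pseudocount of 0.1 gave 3911 higher and 2408 lower and one of 1 gave 3860 and 2350. The median of all genes then stood at 0.12 and 0.09, and the cause was not tested. The Prkg2 change was 4.33 and 2.84 with these pseudocounts and 5.30 by limma-voom. With 3 libraries a group, an exact permutation test cannot go below 0.1 and a sign flip over pairs not below 0.25.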
